A study of Mus musculus with 2 samples.

Results

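A group of 9 genes for enzymes that cut phospholipids, sphingolipids and their neutral lipid relatives were followed in mouse ileal epithelium: Plb1, Enpp7, Asah2, Smpd1, Pla2g12a, Pla2g12b, Pla2g4c, Pla2g6 and Lipa. They are 9 of the 24357 named genes in the deposited tables. Plb1 was chosen by its FPKM, which differed widely between the 2 libraries, and the other members were set beside it as hydrolases of related lipids. The study measured messenger RNA, with the NOD-like receptors as the subject named in its title. It had a single group of 2 libraries, both from wildtype C57BL/6 mice with no treatment or age given in the labels. EDTA was used to strip the epithelium from the ileum, the distal end of the small intestine, and sorting kept cells that carried the epithelial protein EpCAM, lacked the leukocyte protein CD45 and excluded the dye 7AAD, which enters dead cells. The libraries are called replicate 1 and replicate 2 in accession order, and no label says that they came from separate animals.

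Dietary and biliary phosphatidylcholine is cut in the gut lumen by pancreatic phospholipase and at the brush border by phospholipase B, the Plb1 product, a membrane-anchored enzyme that can remove both fatty acids. Sphingomyelin is cut in sequence: the alkaline sphingomyelinase encoded by Enpp7 releases ceramide, and the neutral ceramidase encoded by Asah2 splits ceramide into sphingosine and a fatty acid, and both enzymes sit on the outer face of the enterocyte. Smpd1 and Lipa encode the acid sphingomyelinase and the acid lipase of the lysosome, while the phospholipase A2 genes of the group encode secreted or cytosolic proteins.

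In mm10, Plb1 spans bases 32232708 to 32366520 of chromosome 5 on the plus strand, and RefSeq lists 2 starts for it there. The gene has a single FPKM per library, and which of these starts it covers is not stated. The 300-base window around each start is shown, with that of Enpp7, the highest member, beside them. Each runs from 250 bases before to 50 bases after the start, 5′ to 3′ on the plus strand of GRCm38.p6, and capitals mark a match to one of the motifs named in the next paragraph.
Plb1, chr5:32238834-32239133: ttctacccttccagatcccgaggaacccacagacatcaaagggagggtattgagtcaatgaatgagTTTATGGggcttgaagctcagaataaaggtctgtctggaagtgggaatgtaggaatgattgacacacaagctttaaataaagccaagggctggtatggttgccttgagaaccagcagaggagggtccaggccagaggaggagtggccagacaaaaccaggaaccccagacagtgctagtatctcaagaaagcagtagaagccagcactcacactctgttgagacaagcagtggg
Plb1, chr5:32353330-32353629: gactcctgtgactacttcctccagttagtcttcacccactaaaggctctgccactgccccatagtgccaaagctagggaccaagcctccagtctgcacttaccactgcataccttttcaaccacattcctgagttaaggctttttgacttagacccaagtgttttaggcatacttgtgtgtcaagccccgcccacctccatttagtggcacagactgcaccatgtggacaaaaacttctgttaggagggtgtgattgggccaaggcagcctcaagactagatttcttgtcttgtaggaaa
Enpp7, chr11:118987931-118988230: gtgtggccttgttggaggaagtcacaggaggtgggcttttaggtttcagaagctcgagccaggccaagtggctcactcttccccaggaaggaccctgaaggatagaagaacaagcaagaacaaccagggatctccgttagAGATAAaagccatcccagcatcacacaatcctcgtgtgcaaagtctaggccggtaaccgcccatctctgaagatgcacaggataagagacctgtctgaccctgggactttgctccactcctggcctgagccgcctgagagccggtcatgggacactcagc

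The motifs were searched by their letters on both strands. The upstream Plb1 window held TTTATNG, the core of the site of the intestinal factor CDX2, as TTTATGG from 184 bases before the start. That motif occurred in 10.9% of 32817 RefSeq promoter windows of the same length. The downstream Plb1 window held none of the 5 motifs. The Enpp7 window held the GATA motif AGATAA from 110 bases before the start, found in 11.2% of windows. The TATA box TATAAA (13.6% of windows), CAAAGTCCA for HNF4 (0.475%) and GTTAATNA for HNF1 (2.54%) did not occur in these 3 windows. The letters TTTATNG and TATAAA can overlap on opposite strands. A match describes letters in a window, and the data hold no measurement of factor binding.

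Steps between the lowest values put the libraries at about 16200000 and 26000000 fragments. Xist, transcribed from the inactive X, went from 7.91 FPKM to 0.00640 FPKM between replicates 1 and 2, and Eif2s3y of the Y chromosome from 0 to 14.9 FPKM, so the libraries came from animals of different sex, and any difference between them cannot be told apart from sex. The epithelial label held: all 20 absorptive enterocyte markers averaged 1 FPKM or more, against 2 of 9 lymphocyte, 2 of 10 myeloid, 1 of 8 fibroblast and 0 of 8 endothelial markers. Fewer cells of a type and less RNA per cell cannot be told apart in such bulk samples.

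Plb1 was the highest member in replicate 1 at 170 FPKM and stood at 20.5 FPKM in replicate 2. The value was 8.31-fold higher in replicate 1, a difference of -2.99 in log2(FPKM + 1) for replicate 2 minus replicate 1. In replicate 1 Plb1 exceeded 98.1% of all genes and in replicate 2 it exceeded 87.9%. This difference chose the gene and is given as a description with no test, and with 2 values no mean represents both libraries well (95.3 ± 106 FPKM, SD, n = 2). Among 10601 genes averaging 1 FPKM or more it was the 9th most negative difference. Among 6459 protein-coding genes averaging 5 FPKM or more it was the second, after that of Sco2, which had 10.7 and 0.0405 FPKM and was picked out after its values were seen.

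By the approximate depths, the Plb1 values lay far above those of single fragments. With its longest coding transcript of 4771 bases, the 2 values would rest on about 12674 and 2459 fragments. None of its 50-base words occurred in transcripts of other genes in the same orientation, and the opposite strand was not compared. The annotated antisense gene Gm36840 lies within the Plb1 span and shares 134 exonic bases with it, 1.15% of the 11660 exonic bases of Plb1. The strand setting is not given in the sources used here, so reads on those bases cannot be assigned. The neighbouring genes on chromosome 5 had other patterns. Fosl2, an AP-1 family transcription factor gene upstream of Plb1, had 19.5 and 16.1 FPKM, and Ppp1cb, which encodes a catalytic subunit of protein phosphatase 1 and lies downstream, had 29.3 and 34.2 FPKM.

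Enpp7 was high in both libraries. It had 168 FPKM in replicate 1 against 157 FPKM in replicate 2, or 162 ± 7.75 FPKM (SD, n = 2), and its difference of -0.10 in log2(FPKM + 1) was small beside that of Plb1. Its mean exceeded 98.0% of all genes. The gene spans bases 118988188 to 118993221 of chromosome 11, plus strand, with 5 exons in its longest coding transcript. In replicate 1 Plb1 and Enpp7 were level, at a ratio of 1.01, whereas in replicate 2 Enpp7 was 7.66-fold higher than Plb1.

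Asah2, the next enzyme in sphingomyelin digestion, had 73.1 FPKM in replicate 1 against 101 FPKM in replicate 2 (86.9 ± 19.5 FPKM, SD, n = 2). It was thus higher in replicate 2, by 0.46 in log2(FPKM + 1). Enpp7 exceeded Asah2 in both libraries, 2.29-fold in replicate 1 and 1.56-fold in replicate 2. Asah2 spans bases 31982597 to 32108211 of chromosome 19, minus strand. Its lysosomal counterpart Asah1, the acid ceramidase, had 24.8 and 22.2 FPKM, so that Asah2 stood 2.95-fold and 4.54-fold above it.

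**Figure D1:**
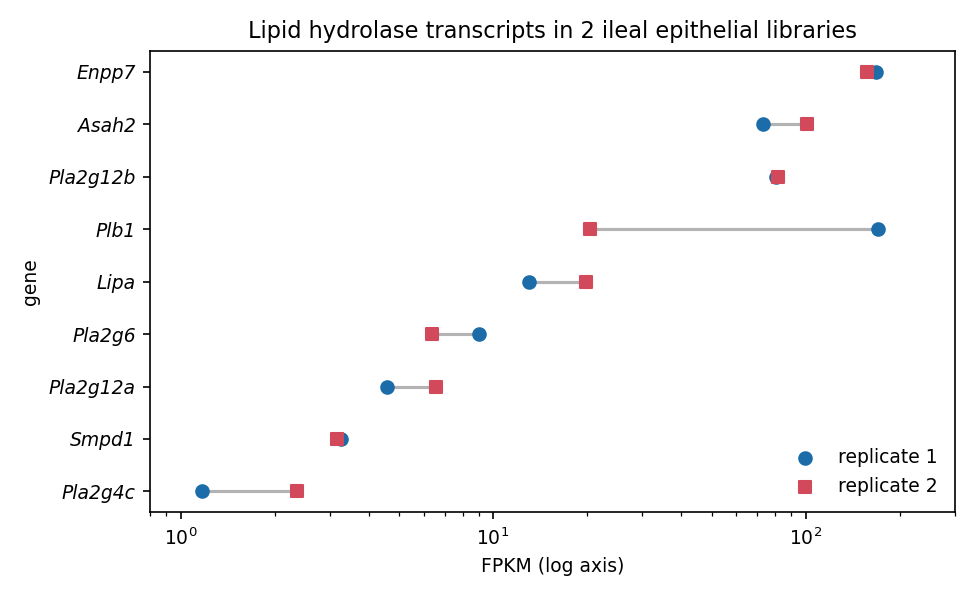
FPKM of the 9 lipid hydrolase genes on a log axis, with replicate 1 as circles, replicate 2 as squares and a line joining the 2 values of a gene. Plb1 runs from 170 to 20.5 FPKM, an 8.31-fold ratio, and the next widest ratio is the 2.01-fold of Pla2g4c, the lowest member.

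Smpd1, the lysosomal sphingomyelinase, was low, with 3.27 FPKM in replicate 1 against 3.16 FPKM in replicate 2. Enpp7 was 51.4-fold and 49.7-fold above it. Lipa, which cuts cholesteryl esters and triglycerides in the lysosome, had 13.0 FPKM in replicate 1 against 19.8 FPKM in replicate 2, a difference of 0.57 in log2(FPKM + 1). Smpd1 spans bases 105554360 to 105558389 of chromosome 7, plus strand, and Lipa bases 34492318 to 34527474 of chromosome 19, minus strand.

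The paired secreted forms Pla2g12a and Pla2g12b differed widely in level. Pla2g12b, whose product is known as catalytically inactive and is linked in mice to the secretion of triglyceride-rich lipoproteins, had 80.6 FPKM in replicate 1 against 81.5 FPKM in replicate 2. The difference of 0.02 in log2(FPKM + 1) was the smallest of all members in size. Pla2g12a, which encodes the active enzyme, had 4.59 and 6.57 FPKM, so that Pla2g12b was 17.6-fold and 12.4-fold higher. Pla2g12b spans bases 59403660 to 59421976 of chromosome 10 and Pla2g12a bases 129878606 to 129895825 of chromosome 3, both on the plus strand.

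The cytosolic phospholipases were low. Pla2g6, a calcium-independent phospholipase A2, had 8.99 FPKM in replicate 1 against 6.38 FPKM in replicate 2, a difference of -0.44 in log2(FPKM + 1). Pla2g4c, the calcium-independent member of the cytosolic group IV, was the lowest member, with 1.17 FPKM in replicate 1 against 2.35 FPKM in replicate 2, about 61 and 198 fragments. Its difference was 0.63 in log2(FPKM + 1), and 3.14% of its 50-base words also occur in transcripts of other genes, among them the pseudogene Pla2g4c-ps. Pla2g6 spans bases 79286228 to 79328390 of chromosome 15, minus strand, and Pla2g4c bases 13324655 to 13360672 of chromosome 7, plus strand. All 9 are annotated as protein-coding.

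By mean log2(FPKM + 1) the order was Enpp7, Asah2, Pla2g12b, Plb1, Lipa, Pla2g6, Pla2g12a, Smpd1 and Pla2g4c. Neighbours were called separated where their values did not overlap and their means differed by more than the larger of their own differences between libraries. By this measure 4 of 8 neighbouring pairs were separated. Enpp7 exceeded Asah2 by 0.91 on this scale, Lipa exceeded Pla2g6 by 0.99, Pla2g12a exceeded Smpd1 by 0.63 and Smpd1 exceeded Pla2g4c by 0.64 against a spread of 0.63, a separation that was lost with pseudocounts of 0.1 (0.91 against 0.95) and 0.01 (0.95 against 1.00). Asah2 and Pla2g12b overlapped, as did Pla2g6 and Pla2g12a. Plb1 was not separated from either neighbour, since its spread of 2.99 was wider than the steps of 0.44 below Pla2g12b and 1.83 above Lipa. Its values overlapped those of Pla2g12b but not those of Lipa. The lower Plb1 value, 20.5 FPKM, was just above the higher Lipa value, 19.8 FPKM. Of the 28 pairs without Plb1, 26 were separated. With 2 values against 2 taken as unpaired, the smallest p of an exact two-sided permutation test is 0.333. No p is printed for single genes.

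Of the 9 members, 1 was lower in replicate 2 by more than 1 in log2(FPKM + 1) and 0 were higher by that much, and that 1 is Plb1, which the choice of members fixed. Over all genes averaging 1 FPKM or more, 0.962% were lower and 0.566% higher by the same measure. The other 8 members lay between -0.44 and 0.63, and the central 95% of all genes ran from -0.66 to 0.64. Counted by direction, 5 of the 9 were higher in replicate 2 and 4 lower, with a median of 0.02 against a median of 0.11 over all genes. Directions of small differences depended on the scaling. With replicate 2 rescaled by the median ratio, a shift of 0.13 on the log2 scale, Pla2g12b turned to -0.11, for 4 higher and 5 lower. With the GC and length trend removed, Enpp7 turned to 0.04 and Smpd1 to 0.09, for 7 higher and 2 lower. That setting leaves genes centred on 0.11 and not on 0, and both values lay below 0.11. Summed over the 9 genes, FPKM was 523 in replicate 1 and 398 in replicate 2. Without Plb1 the sum was 353 and 377. Plb1 made up 32.5% of the sum in replicate 1 and 5.15% in replicate 2, and Enpp7 32.1% and 39.4%.

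**Figure D2:**
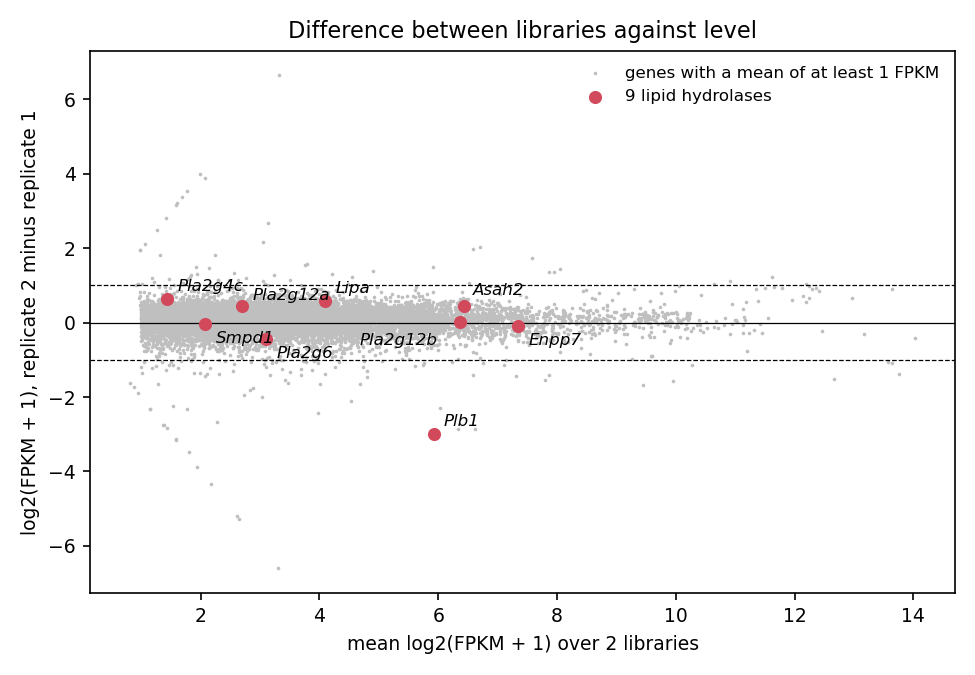
Difference between the libraries in log2(FPKM + 1), replicate 2 minus replicate 1, against the mean over both, for 10601 genes in grey and the 9 lipid hydrolases in red, with dashed lines at 1 and -1. Plb1 at -2.99 lies below most genes of its level, and the other members lie between the dashed lines.

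The difference between libraries went with GC content over all genes. Cut into 5 equal bins by GC content, genes had a median of 0.28 in the lowest bin and of -0.15 in the highest. Among the members, Asah2 (42.2% GC), Pla2g4c (43.4%) and Lipa (45.5%) were higher in replicate 2, and Pla2g6 (58.3%) was lower, while Pla2g12a (51.5%) was higher by 0.44. After removal of the trend with GC content and transcript length, which leaves genes centred on the overall median of 0.11, Pla2g6 moved from -0.44 to -0.07, Pla2g4c from 0.63 to 0.43 and Lipa from 0.57 to 0.45. Plb1, with 50.9% GC, went from -2.99 to -2.95.

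**Figure D3:**
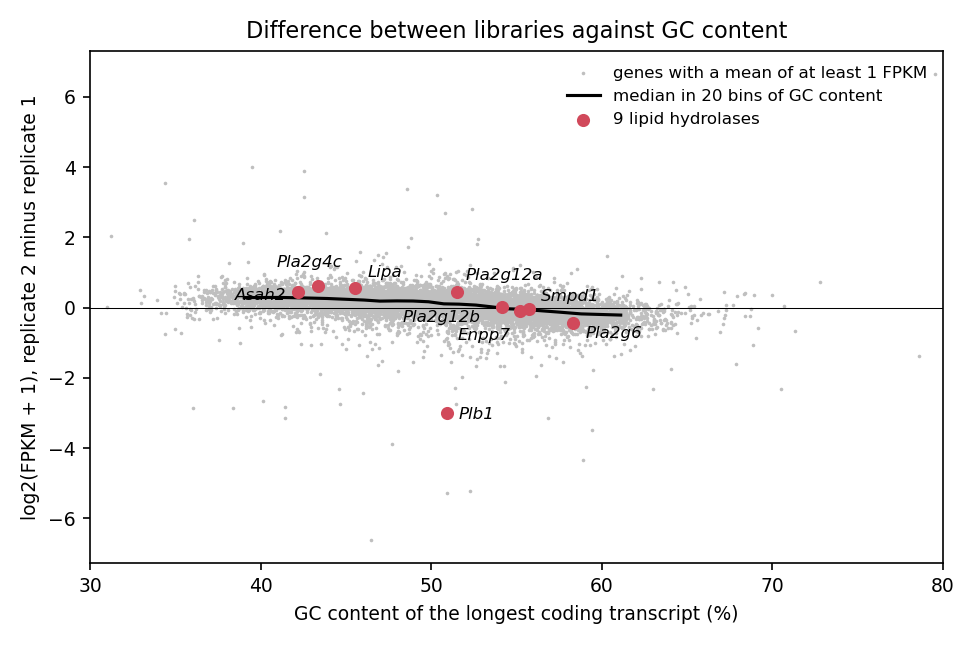
Difference between the libraries in log2(FPKM + 1) against the GC content of the longest coding transcript, with genes in grey, their running median as a black line and the 9 lipid hydrolases in red. The line falls with GC content, and Plb1 lies far below it at -2.99 with 50.9% GC.

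Other lipid enzymes were taken from 9 lists of 121 genes, of which 93 averaged 1 FPKM or more. Past 1 in log2(FPKM + 1), 1 of these was higher in replicate 2 and 1 was lower, each 1.08%, beside 0.566% and 0.962% over all genes. Their median difference was 0.06. The gene that was higher was Pnliprp2, a pancreatic lipase-related gene that also acts on phospholipids and galactolipids, with 17.3 FPKM in replicate 1 against 47.3 FPKM in replicate 2 (a difference of 1.40). The gene that was lower was Pla2g5, a secreted phospholipase A2, with 4.93 and 1.32 FPKM (a difference of -1.35).

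Among 11 secreted phospholipase A genes, 5 averaged 1 FPKM or more, and 4 of those were lower in replicate 2. Pla2g2a, the Paneth cell phospholipase, had 37.4 and 66.2 FPKM. C57BL/6 mice are known to carry a disrupted allele of this gene. Liph, a phosphatidic acid-selective phospholipase A1, had 19.5 FPKM in both libraries. It counted as lower by a difference of -0.003 in log2(FPKM + 1). Pla2g10, a secreted phospholipase A2 with high activity on phosphatidylcholine, had 17.9 and 11.3 FPKM. Pla2g1b, the pancreatic enzyme of luminal phospholipid digestion, stood at 0.460 and 0.697 FPKM. Of 13 pancreatic acinar markers 9 were listed at 0 in both libraries, among them Pnlip and Cel. Besides Pla2g1b, the others were Clps, the colipase gene, with 188 and 220 FPKM, the elastase gene Cela1 with 4.21 and 3.24 FPKM and the chymotrypsinogen gene Ctrb1 with 0.420 and 0.741 FPKM.

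Enzymes that act inside the cell showed small differences. Of 17 intracellular phospholipase A and lysophospholipase genes averaging 1 FPKM or more, 11 were higher and 6 lower in replicate 2. The counts were 9 and 8 after rescaling, and 11 and 6 with the GC and length trend removed. As deposited, the genes had a range of -0.56 to 0.60. They were led by the acyl-protein thioesterase and lysophospholipase genes Lypla1, at 81.0 and 123 FPKM, and Lypla2, at 43.9 and 34.2 FPKM, with Pafah1b3, a subunit of platelet-activating factor acetylhydrolase, between them at 67.7 and 55.7 FPKM. Among 9 such genes for phospholipases C and D and related phosphodiesterases, Gde1 had 70.6 and 70.9 FPKM, Gdpd1 49.7 and 40.1 FPKM, and Pld1, a phospholipase D, 20.1 and 21.8 FPKM.

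On the sphingolipid side, 5 further genes of the list of sphingomyelinases and related genes averaged 1 FPKM or more and differed by -0.21 to 0.17. Smpdl3a and Smpdl3b are listed as genes like acid sphingomyelinase, and the data do not show that their products cut sphingomyelin. Smpdl3a had 51.7 and 58.4 FPKM, Smpd2, a neutral sphingomyelinase, 52.3 and 49.5 FPKM, and Smpdl3b 35.1 and 30.2 FPKM. All of these were below Enpp7 in both libraries. In the list of ceramidases and glycosylceramidases, 11 of 11 genes averaged 1 FPKM or more, with Lct, the lactase that also cleaves glycosylceramides, at 267 and 349 FPKM and Psap, the saposin precursor, at 129 and 117 FPKM.

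Genes that use the products were also expressed. Sgpl1, the lyase that degrades sphingosine 1-phosphate, had 86.2 and 103 FPKM, Degs2, which makes phytoceramide, 170 and 135 FPKM and Cers2, a ceramide synthase, 56.2 and 62.6 FPKM. The 17 sphingosine and ceramide genes averaging 1 FPKM or more differed by a median of 0.11, close to the median of all genes. Lpcat3, which reacylates lysophosphatidylcholine after uptake, had 94.6 and 91.4 FPKM. Agpat2 had 160 and 140 FPKM and Agpat1 56.6 and 49.3 FPKM, both acyltransferases that make phosphatidic acid. Of 8 reacylation genes, 2 were higher and 6 lower in replicate 2, or 5 and 3 with the GC and length trend removed.

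Neutral lipid and lysosomal genes completed the comparison. Aadac, a microsomal deacetylase with lipase activity, had 34.3 and 68.0 FPKM, and Pnpla2, the adipose triglyceride lipase, 49.8 and 33.2 FPKM. Among 11 lysosomal genes the differences ran from -0.21 to 0.34, with the membrane proteins Lamp1 at 201 and 241 FPKM and Lamp2 at 64.0 and 81.5 FPKM, and the protease Ctsd at 115 and 98.9 FPKM.

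Marker lists moved between the libraries as well, beside a median difference of 0.11 over all genes averaging 1 FPKM or more. The share of all genes higher or lower was not counted. The direction counts below, and those of the members and enzyme lists above, therefore have no such share beside them. Absorptive enterocyte markers, the cells that carry the brush border enzymes, had a median difference of 0.16 over 20 genes, with 15 higher and 5 lower in replicate 2 (11 and 9 after rescaling), and their summed FPKM was 45616 and 48057. Distal small intestine markers were lower in 8 of 11 cases (median -0.25, summed FPKM 2164 and 1118), and Fabp6, the ileal bile acid binding protein gene, had 1247 and 390 FPKM. Proximal markers were split 5 to 5, or 3 higher and 7 lower after rescaling, with a summed FPKM of 4764 and 6504. Most of these sums came from Fabp1, also an absorptive marker, with 3209 and 4884 FPKM. Slc40a1 of the same list was past -1, with 20.6 and 9.54 FPKM. Villus tip markers had a median of -0.03, or 0.01 with the GC and length trend removed. Villus base markers had a median of 0.05, or -0.08 after rescaling and -0.05 with the trend removed, with Reg3b and Reg3g, antimicrobial lectin genes, past -1. Goblet cell markers were lower in 11 of 11 cases (median -0.99, summed FPKM 44588 and 22620), and Paneth cell markers higher in 13 of 14 (median 0.77, summed FPKM 21848 and 40893). Tuft cell markers were lower in 7 of 8 cases (median -0.67) and enteroendocrine markers in 10 of 12 (median -0.27). Stem and crypt base markers were higher in 9 of 10 (median 0.41), or 7 of 10 after rescaling. In these lists 0 markers were listed at 0 in both libraries. The part of these shifts in the Plb1 difference was not tested.

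**Figure D4:**
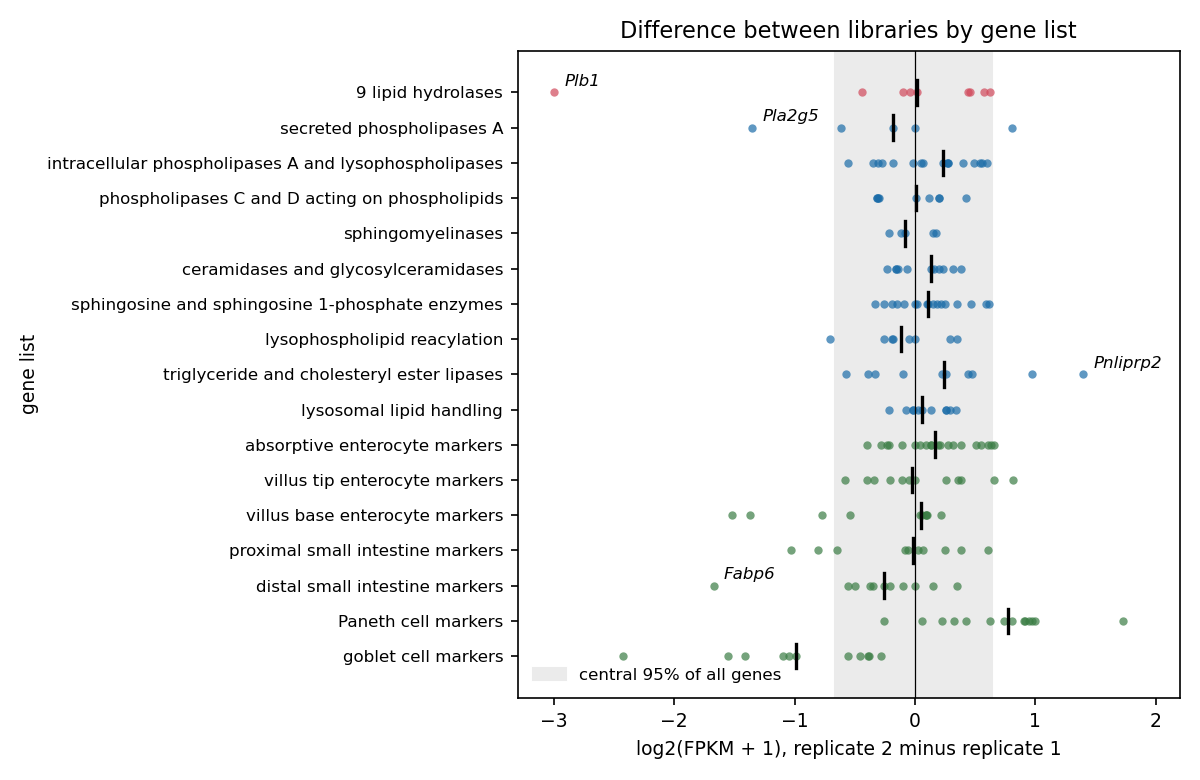
Difference between the libraries in log2(FPKM + 1), replicate 2 minus replicate 1, for genes averaging 1 FPKM or more in the hydrolase group (red), other lipid enzyme lists (blue) and marker lists (green), with black bars at list medians and a grey band for the central 95% of all genes. Lists of other cell types and of sex-linked genes are not drawn. Plb1 lies at -2.99, and among the lists drawn the goblet cell markers have the lowest median at -0.99.

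The genes nearest to Plb1 by the Euclidean distance of log2(FPKM + 1) over the 2 libraries were Saa1, Mir684-2, Mir684-1, Gsn and Zbp1. Saa1, a serum amyloid A gene, had 143 and 28.4 FPKM at a distance of 0.52. Mir684-2 had 215 and 28.9 FPKM at 0.58, and Mir684-1 263 and 35.6 FPKM at 0.99. Both are annotated as microRNA genes, not as protein-coding genes. Gsn, the actin-severing gelsolin, had 78.5 and 35.2 FPKM at 1.34, and Zbp1, which encodes a Z-DNA binding protein, 72.4 and 31.5 FPKM at 1.36. A likeness over 2 libraries describes the 2 values and nothing more.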

How the data were processed

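RNA of 2 libraries of sorted ileal epithelium was analysed. TopHat2 2.0.14, Cufflinks 2.2.1 and mm10 are named in the submitters' processing notes. The authors deposited FPKM, which scale fragments to transcript length and to library depth, with 1 value per gene symbol. For the annotation, strand setting and multi-read treatment, nothing is stated in the labels. Of 24384 rows, 27 were named by a date and were left out.

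A count model does not apply to FPKM, so log2(FPKM + 1) was used, which understates differences of low genes. Depth was read from low values as the commonest worth of 1 fragment, with the transcript length less 160 bases. Whole fragment numbers, within 0.05, came out for 47.7% of low values in replicate 1 and for 38.6% in replicate 2, so counts were not recovered, and fragment numbers are approximate. SDs over 2 libraries measure the spread between these samples, which may be partly technical, and no p-value was computed. A member past 1 in log2(FPKM + 1) was set beside the share of all genes past it.

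GENCODE release M21 on mm10 gave coordinates, transcript lengths and GC content, which were found for 96.5% of genes averaging 1 FPKM or more. To remove the trend, the median difference in each of 10 by 5 cells of GC content and length was subtracted and the overall median added back, and this step was tested on simulated data. Promoters came from RefSeq on GRCm38.p6 and were matched for 9 of 9 members. Members and lists were chosen with earlier results of these data known. Genes named beside the members are the 3 highest of each list, those past the fold in it, and the 5 nearest to Plb1. Genes outside this rule, such as Pla2g1b, Sco2, Fosl2, Ppp1cb and Eif2s3y, were chosen after their values were seen. Pseudocounts, minimum FPKM, scaling and single libraries were varied. Python 3.11.15, numpy 2.4.6, pandas 2.3.3 and matplotlib 3.10.9 were used.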

Additional observations from a re-analysis of the deposited data

How the results depend on the processing

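The Plb1 difference lay between -3.16 and -2.95 over pseudocounts of 0.1 and 0.01, rescaling of replicate 2 by the median ratio, removal of the GC and length trend and subtraction of the absorptive median. For the other 8 members each of these 40 values moved by less than the SD of the difference over genes, 0.39. That bound is not small beside the members' own differences, so staying within it does not show that a value was stable. Pla2g6 moved from -0.44 to -0.07 with the GC and length trend removed, and Pla2g4c from 0.63 to 1.00 with a pseudocount of 0.01. Enpp7, Smpd1 and Pla2g12b, which lie near 0, changed sign under some settings. The count of members higher in replicate 2 by more than 1 went from 0 to 1 with a pseudocount of 0.01, through Pla2g4c, the lowest member, and the count lower stayed at 1. Over all genes, 60 of 10601 (0.566%) were higher by that much, and 34 of 6898 (0.493%) with a minimum of 5 FPKM. In the other direction 102 (0.962%) and 68 (0.986%) were lower, so the shares changed little between these minimums. With no minimum the shares were smaller, at 62 of 24357 genes (0.255%) higher and 109 (0.448%) lower. The number of separated neighbours went from 4 to 3 with either smaller pseudocount, as Smpd1 and Pla2g4c were no longer separated. Without one or the other library, the level of Plb1 is the single value of 20.5 or 170 FPKM, so its mean rests on which library is kept, and the difference itself cannot be recomputed with a library left out. Samples could not be paired between groups because the series has 1 group. Members were measured in the same 2 libraries, and the rule for separated neighbours did not use that pairing. Depth limits Pla2g4c most, at about 61 fragments in replicate 1.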
